A study of Canis lupus familiaris with 62 samples.

Results

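In 14 of 62 canine meningiomas, the expression of whole chromosomes stood above or below the rest of the genome on at least 5 of the 38 autosomes, and in 19 tumours it did so on none. These 14 tumours, called multi-deviation tumours here, are described below and set against the 19, called undeviating tumours. The other 29 tumours had between 1 and 4 such autosomes and were left out. The tumours were chosen by expression itself. The values were log2 CPM, the logarithm of each gene's share of the library's counts, which rescale each library to its own total. Every autosomal gene with a mean of at least 2 on that scale was centred on its mean over all 62 tumours. The score of an autosome in a tumour was the mean of these centred values, less the median of that tumour's 38 autosome means. An autosome was counted as deviating where its score was beyond 0.3 in size, which is a level of 81.2% or 123% of the tumour's own baseline on the linear scale. That baseline is the tumour's median autosome, with each gene already set against its mean over all 62 tumours. Such a percentage is thus relative to the other tumours too. Because these scores chose the tumours, they are given as a description and carry no test.

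Total RNA was sequenced from archived paraffin blocks of spontaneous meningiomas, 1 library per dog, with tissue taken at surgery or shortly after death. The treatment labels give 27 untreated dogs, 7 dogs with steroid (in most labels together with an anti-epileptic), 3 with anti-epileptic alone, 3 with RT, 13 with Sx and 9 with Sx and RT, where Sx and RT were read as surgery and radiotherapy. No group carries a deletion, transgene or other engineered change, and no healthy meninges or matched normal tissue entered the comparison, so each score is relative to the other tumours. The 14 multi-deviation tumours came from 4 untreated dogs, 1 steroid dog, 8 Sx dogs and 1 dog with Sx and RT. The 19 undeviating tumours came from 10 untreated dogs, 1 steroid dog, 1 RT dog, 4 Sx dogs and 3 dogs with Sx and RT. The steroid dog of each class was labelled with steroid and anti-epileptic together. All samples are bulk tissue, in which fewer cells of a type and less RNA per cell cannot be told apart. The identifiers carry no gene names here, so the markers of meningioma cells, brain cells and immune cells, and the cell cycle genes, were not analysed.

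Meningiomas are tumours of the arachnoid lining of the brain and spinal cord. In human meningiomas, loss of a chromosome arm that holds the tumour suppressor NF2 is a frequent early event, and more aggressive tumours tend to carry more gains and losses of whole chromosome arms. A gained or lost chromosome usually shifts the expression of many of its genes in the same direction, by less than the change in copy number. RNA alone does not measure copy number, and the scores here are expression values.

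The limit cut through a continuous range of scores. No tumour had exactly 5 deviating autosomes. Sx replicate 6 and untreated replicate 15, with 6 each, were just inside, and antiepileptic replicate 2, untreated replicates 17 and 23 and SxRT replicate 9, with 4 each, were just outside. The largest score of an undeviating tumour ranged in size from 0.175 to just under 0.3, with a median of 0.257. In multi-deviation tumours the largest score ranged from 0.406 to 0.902, with a median of 0.649. Within the 14 tumours, 25 scores lay between 0.30 and 0.35 in size and 37 lay between 0.25 and 0.30, so the number of autosomes per tumour moves with the limit.

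The 14 tumours had 133 deviating scores, 80 low and 53 high, with a median size of 0.43. The lowest was -0.90 on chromosome 36 in untreated replicate 21, a level of 53.5% of that tumour's baseline. The highest was 0.69 on chromosome 16 in Sx replicate 3, at 162% of baseline. Both levels are also relative to the gene means over all 62 tumours. The standard error over the 103 to 723 genes of an autosome had a median of 0.061 and was at most 0.137. Genes of an autosome are not independent replicates, so this error describes only the scatter among genes.

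**Figure D1:**
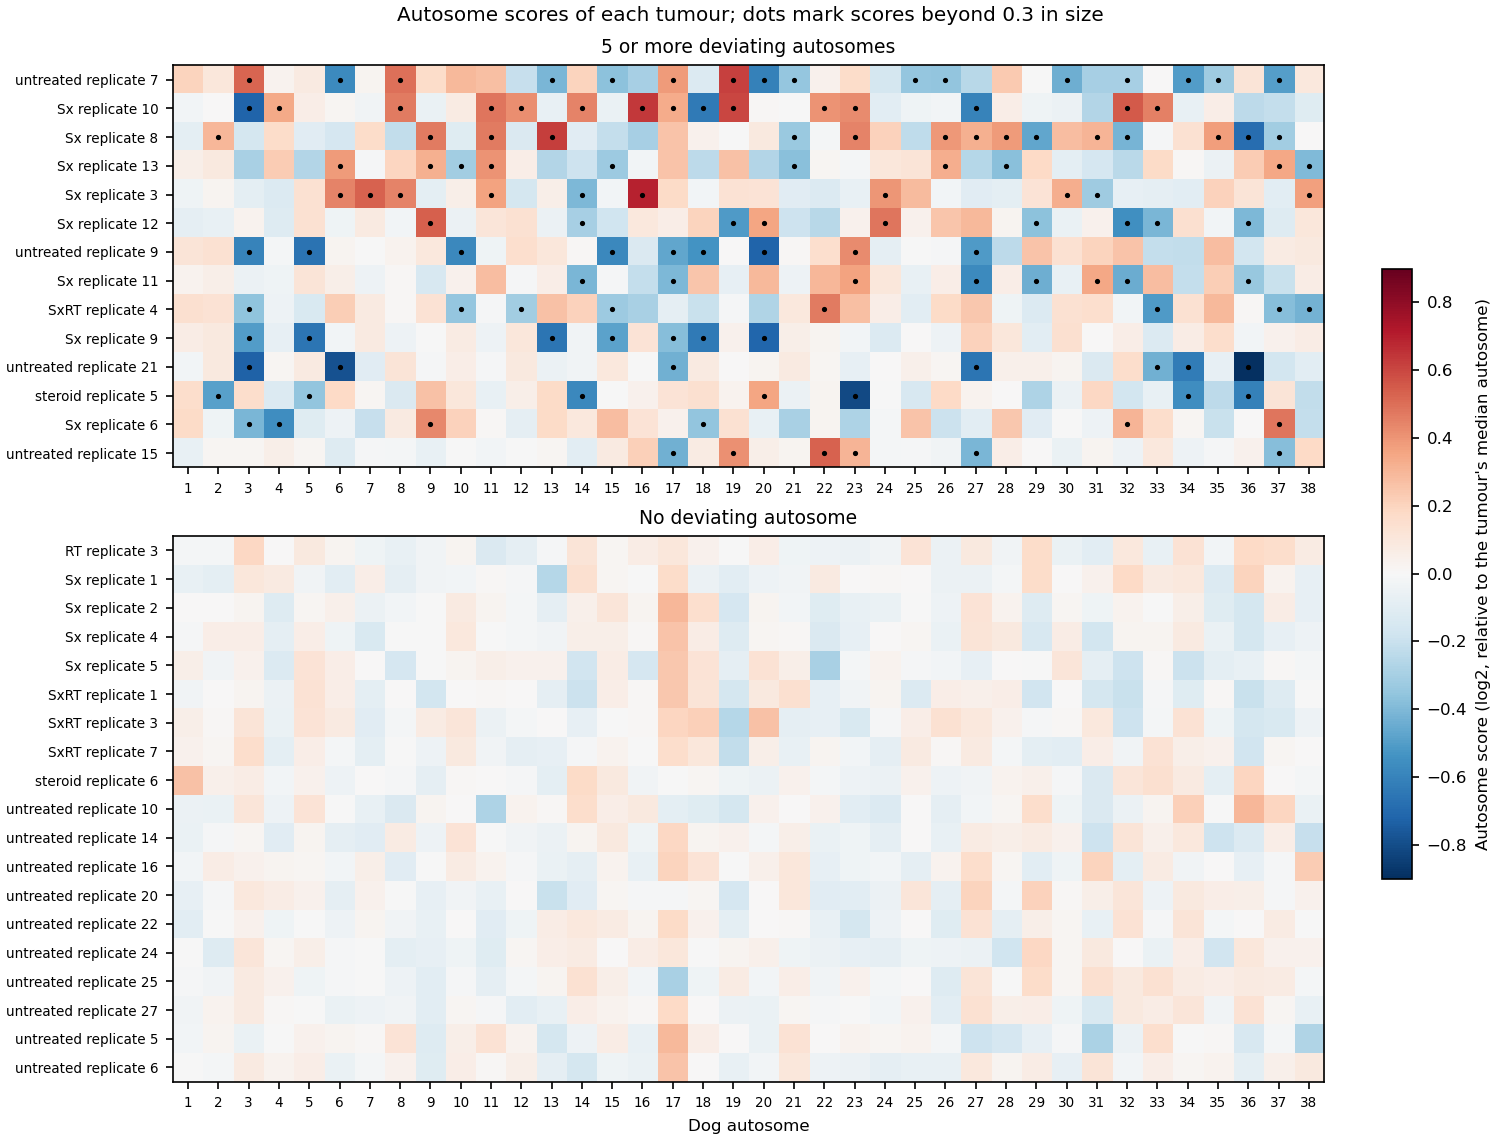
Autosome scores (log2 CPM relative to the tumour's median autosome) of the 14 multi-deviation and 19 undeviating tumours, 1 row per tumour and 1 column per autosome. Scores of the 14 reach from -0.90 to 0.69 in patterns that differ from row to row, while none of the 19 goes beyond 0.3 in size.

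The tumours with the most deviating autosomes went in different directions. Untreated replicate 7 had 16 deviating autosomes, 12 low and 4 high, from -0.61 on chromosome 20 to 0.61 on chromosome 19. Sx replicate 10 had 15, of which 12 were high, among them chromosome 16 at 0.64 and chromosome 19 at 0.60, and its 3 low autosomes were chromosome 3 at -0.72, chromosome 18 at -0.63 and chromosome 27 at -0.60. Sx replicate 8 also had 15, with 10 high, led by chromosome 13 at 0.62, and 5 low, led by chromosome 36 at -0.69. The first was thus mostly low, and the other two were mostly high.

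Sx replicate 3 and Sx replicate 13 had 10 deviating autosomes each. In Sx replicate 3, 8 were high, with chromosome 16 at 0.69 and chromosome 7 at 0.53, and chromosome 14 at -0.41 and chromosome 31 at -0.32 were low. In Sx replicate 13, 5 were high and 5 low, between -0.40 on chromosome 38 and 0.41 on chromosome 11. This tumour had the smallest extremes of the 14, so it entered by number more than by size.

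Sx replicate 9 and untreated replicate 21 had 7 low autosomes each and no high one. Sx replicate 9 was lowest on chromosome 20 at -0.72, chromosomes 5 and 13 at -0.66 each and chromosome 18 at -0.64. Untreated replicate 21 was lowest on chromosome 36 at -0.90, chromosome 6 at -0.79 and chromosome 3 at -0.73. Besides untreated replicate 7, low autosomes were also in the majority in 5 further tumours, namely untreated replicate 9 (8 of 9), SxRT replicate 4 (7 of 8), steroid replicate 5 (6 of 7), Sx replicate 11 (6 of 8) and Sx replicate 12 (6 of 9). Untreated replicate 15 and Sx replicate 6 had 3 low and 3 high each.

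By treatment, the 5 tumours of dogs without surgery held 36 low and 9 high scores, and 4 of the 5 had more low than high. The 9 tumours of dogs with surgery held 44 low and 44 high scores, and 4 of the 9 had more low than high. These directions come from the scores that chose the tumours and were not tested.

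Chromosome 3 was low in more of the 14 tumours than any other autosome. It was low in 6, at -0.73 in untreated replicate 21, -0.72 in Sx replicate 10, -0.60 in untreated replicate 9, -0.50 in Sx replicate 9, -0.41 in Sx replicate 6 and -0.36 in SxRT replicate 4. It was high in untreated replicate 7, at 0.52. Over the 14 tumours it ran from -0.73 to 0.52 with a median of -0.23, against -0.06 to 0.19 with a median of 0.08 in the 19.

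Chromosomes 15, 17, 27 and 36 were low in 5 tumours each. Chromosome 27 was low at -0.66 in untreated replicate 21, -0.60 in Sx replicate 10, -0.58 in Sx replicate 11, -0.51 in untreated replicate 9 and -0.41 in untreated replicate 15, and high at 0.32 in Sx replicate 8. Chromosome 17 lay between -0.47 and -0.38 in its 5 low tumours and was high in untreated replicate 7 at 0.39 and Sx replicate 10 at 0.33. Among the 29 tumours between the classes, chromosome 17 was low in 10 and made the only deviation of 5, whereas chromosome 27 was low in 2 and was the only deviation of none. Because gene means were taken over all 62 tumours, these low tumours raise the chromosome 17 scores of the rest, and its median in the 19 undeviating tumours was 0.18.

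Chromosome 36 has only 103 genes in the score, the fewest of any autosome. It was low in 5 multi-deviation tumours, from -0.90 in untreated replicate 21 to -0.34 in Sx replicate 11, and high in none of them. In the tumours between the classes it was high in 10 and low in 4. Chromosomes 14, 18, 32 and 37 were low in 4 multi-deviation tumours each.

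High scores were most frequent on chromosome 23. It was high in 5 tumours, between 0.30 in untreated replicate 15 and 0.45 in Sx replicate 8, and low at -0.81 in steroid replicate 5. Chromosomes 9 and 11 were high in 4 tumours each and low in none. Chromosome 9 ran from 0.32 in Sx replicate 13 to 0.54 in Sx replicate 12, and chromosome 11 from 0.36 in Sx replicate 3 to 0.48 in Sx replicate 10. All 8 of these scores were in dogs labelled Sx. Chromosome 1, with 685 genes, deviated in no multi-deviation tumour, and its scores ran from -0.09 to 0.20. Of the other 37 autosomes, 21 deviated in both directions, 9 only low and 7 only high.

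**Figure D2:**
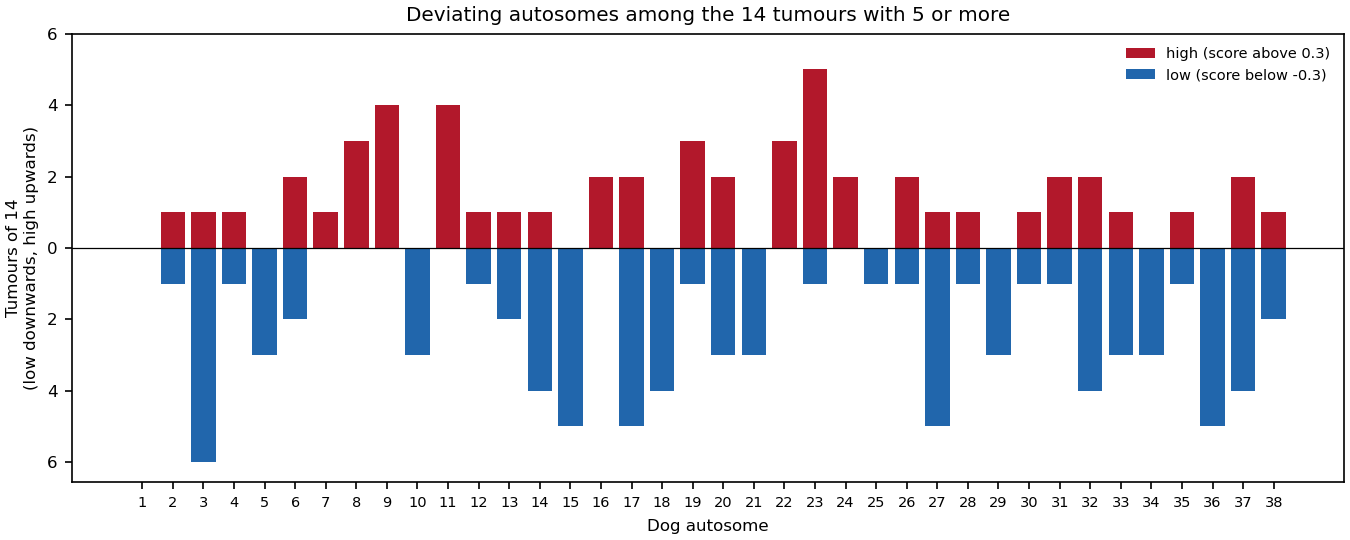
Number of the 14 multi-deviation tumours in which each autosome was low (downward bars) or high (upward bars). Chromosome 3 has the most low tumours, 6, chromosome 23 the most high tumours, 5, and chromosome 1 has none.

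The sets of deviating autosomes differed among the 14 tumours. The sharing that random placement of the deviating scores would give was not computed, so the counts of pairs are a description. Of 91 pairs of tumours, 23 shared no deviating autosome in the same direction, 20 shared at least 3, and 51 had at least 1 autosome deviating in opposite directions. Pearson's r between the scores of 2 tumours, over 38 autosomes, had a median of 0.04 and ran from -0.37 to 0.59. The scores of all tumours share the same gene means, so r is a description only.

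The most alike pair was untreated replicate 9 and Sx replicate 9 (r = 0.59), both low on chromosomes 3, 5, 15, 17, 18 and 20. Their scores on chromosome 5 were -0.66 in each and on chromosome 20 were -0.72 in each. Genes with lower expression, which did not enter the scores, gave r = 0.52 for this pair. The next pairs by score were less alike in those genes. Sx replicates 8 and 12 had r = 0.53 in the scores and -0.02 in the lower-expressed genes, and untreated replicate 15 and Sx replicate 11 had 0.52 and -0.09. The highest r in the lower-expressed genes was 0.66, for untreated replicate 9 and Sx replicate 10, whose scores gave only 0.36. By score, the least alike pair was Sx replicates 10 and 12 (r = -0.37). They deviated in opposite directions on chromosomes 14, 19, 32 and 33.

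A deviating score usually kept its side along the whole autosome. The parts and windows described here hold the same genes whose mean had to be beyond 0.3. Their side is thus in part set by the choice, and the counts are a description. The genes of each autosome were ordered by position and parted at the middle gene, and both parts were on the side of the score in 132 of the 133. In 97 of them both parts were beyond 0.3. In windows of 10 Mb, 732 of 765 (95.7%) lay on the side of the score, and all windows did so in 106 of the 133 scores. The share of genes on the side of the score had a median of 74.7% and reached 90.8%, so even on deviating autosomes many genes lay on the other side.

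A few scores came mainly from 1 part of the autosome. Chromosome 31 in Sx replicate 8 scored 0.31 from a first part at -0.03 and a second part at 0.64, and was the only score with parts on opposite sides. Chromosome 37 in Sx replicate 6 scored 0.48, with 0.94 in the first part and 0.03 in the second. On chromosome 36, Sx replicate 11 had -0.64 and -0.05 in the first and second parts, Sx replicate 12 had -0.68 and -0.13, and Sx replicate 8 had -0.98 and -0.39. All 3 were lower in the first part. Chromosome 25 in untreated replicate 7 was the reverse, at -0.06 and -0.63.

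Across the 38 autosomes, Pearson's r between the first-part and second-part scores ran from 0.29 in Sx replicate 12 to 0.89 in Sx replicate 10, with a median of 0.72 over the 14 tumours. In the undeviating tumours it ran from -0.11 to 0.51, with a median of 0.17. Both parts share the library and its baseline, and a wider range of scores by itself raises r, so these values are a description.

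**Figure D3:**
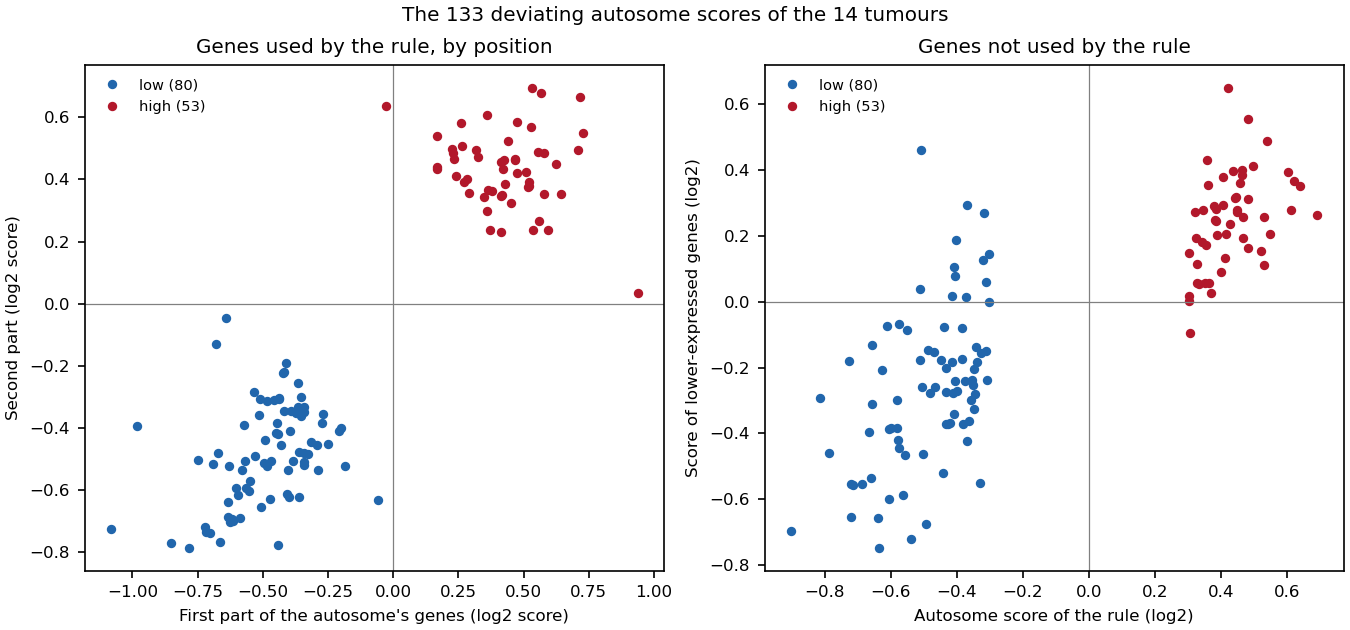
Each of the 133 deviating scores of the 14 multi-deviation tumours (log2 CPM relative to the tumour's median autosome; low in blue, high in red). Left, the second part of the autosome's genes against the first, on the same side of 0 in 132; right, the lower-expressed genes against the score, on the same side in 120 and on opposite sides in 13.

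The autosomal genes with a mean log2 CPM from 0 to under 2, 3781 in all, are not among the 11486 genes that chose the tumours, and so give a measure that can be tested. They lay on the same side as the score in 120 of the 133 deviating cases (90.2%), in 68 of 80 low and 52 of 53 high ones. On autosomes of the same tumours that did not deviate, the sides agreed in 262 of 399 cases (65.7%), and in the undeviating tumours in 420 of 722 (58.2%). Sx replicate 10, untreated replicate 9, Sx replicate 9, untreated replicate 21, steroid replicate 5, Sx replicate 6 and untreated replicate 15 had every deviating autosome on the same side in both gene sets. Sx replicate 12 had 5 of 9, the fewest.

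Taken as 1 value per tumour, the lower-expressed genes of the deviating autosomes were displaced toward the side of the score by 0.25 ± 0.11 log2 CPM (SD, n = 14), against 0.47 for the genes that set the score. The value was lowest in Sx replicate 11, at 0.09, had a median of 0.25 and was highest in untreated replicate 9 and Sx replicate 9, at 0.43 each. It was above 0 in 14 of 14 tumours (exact 2-sided sign-flip permutation test, p = 0.000122, the smallest that 14 tumours allow). Its Benjamini-Hochberg adjusted p over a family of 15 tests was 0.000916. The test is against a displacement of 0. In the undeviating tumours the sides of the 2 gene sets already agreed in 58.2% of cases, and the displacement was not compared with that background. The lower-expressed genes are in the same libraries as the scores. Low counts with a prior count of 2 pull log2 CPM toward a floor, so the smaller displacement is not a measure of a smaller change. A prior count of 5 changes the gene means, so the scored and the lower-expressed genes were drawn anew. The displacement was then 0.0537 (adjusted exact permutation p = 0.00183), for a gene set other than the 3781. Among the 5 dogs without surgery the displacement was 0.30, where a sign-flip test cannot go below p = 0.0625.

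By chromosome, the lower-expressed genes followed the low scores in 6 of 6 tumours on chromosome 3, 5 of 5 on chromosomes 17 and 27, 4 of 4 on chromosome 18, and 4 of 5 on chromosomes 15 and 36. They followed the high scores in 5 of 5 tumours on chromosome 23 and 4 of 4 on chromosomes 9 and 11. Chromosomes 14 and 33 differed, with 1 of 4 and 1 of 3 low scores followed. Chromosome 15 in untreated replicate 7 was -0.37 in the scored genes and 0.29 in the 107 lower-expressed ones.

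The spread of the 38 autosome values from lower-expressed genes alone was larger in multi-deviation tumours. Their SD over autosomes ran from 0.164 to 0.309, with a median of 0.245, and that of the undeviating tumours from 0.122 to 0.247, with a median of 0.163. The ranges overlap, but 14 of the 14 lay above the median of the 19. The means were 0.243 ± 0.0433 (SD, n = 14) and 0.168 ± 0.0305 (n = 19), a difference of 0.0757 (2-sided permutation test, p = 2e-05, the smallest the resamples can give, adjusted p = 0.000300). Among dogs with surgery the means were 0.238 and 0.171 (9 against 7 dogs, exact permutation p = 0.00175, adjusted p = 0.0122), and among dogs without surgery 0.253 and 0.166 (5 against 12 dogs, exact permutation p = 0.00517, adjusted p = 0.0621). When genes from a mean of 1 set the score, which leaves fewer for the test, the difference was 0.0443 (adjusted permutation p = 0.0799). With a prior count of 5, where gene sets and classes were drawn anew, it was 0.0112 (adjusted permutation p = 0.0486).

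The X chromosome took no part in the choice of tumours. Its score, computed as for an autosome, was farther from 0 in multi-deviation tumours. That score subtracts the median of the autosome means that chose the tumours, so its size is not free of the choice. The part of this in the X difference was not tested. Its size ran from 0.003 in untreated replicate 9 to 0.368 in Sx replicate 13, with a median of 0.102, against 0.008 to 0.234 with a median of 0.038 in the 19. The ranges overlap, and 12 of the 14 lay above the median of the undeviating tumours. The means were 0.138 ± 0.102 (SD, n = 14) and 0.0512 ± 0.0512 (n = 19), a difference of 0.0872 (2-sided permutation test, p = 0.00308, adjusted p = 0.0154).

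The X scores lay on both sides of 0. Of the 14, only Sx replicate 13, at -0.37, was beyond the 0.3 that made an autosome deviating. A smaller size of 0.20 is used here for description only, and 5 of the 14 tumours were beyond it. X was low in Sx replicate 13, in Sx replicate 8 at -0.20 and in SxRT replicate 4 at -0.20. It was high in untreated replicate 7 at 0.27 and Sx replicate 10 at 0.21. Of the 19 undeviating tumours only untreated replicate 14 was beyond 0.20, at -0.23. Signed X scores of females were -0.0234 ± 0.227 (SD, n = 6) and -0.0104 in the undeviating class (n = 10; exact permutation p = 0.860), and those of males -0.0256 ± 0.140 (n = 8) and -0.00220 (n = 9; exact permutation p = 0.658). So no shift of the mean passed the test in either sex, with 6 to 10 dogs a group.

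Within dogs with surgery the difference in X size passed the test. There the means were 0.162 and 0.0337 (9 against 7 dogs, exact permutation p = 0.000175, adjusted p = 0.00245), and all 9 lay above the largest value of the 7, since the smallest of the 9 was 0.0582 and the largest of the 7 was 0.0554. Without surgery they were 0.0964 and 0.0614 (5 against 12 dogs, exact permutation p = 0.386). Whether surgery changed the class difference was tested for the numeric measures and none passed, the smallest adjusted p being 0.680. The X difference fell to 0.0653 (adjusted p = 0.291) with a limit of 0.25 and to 0.0601 (adjusted p = 0.147) when 4 autosomes were enough.

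**Figure D4:**
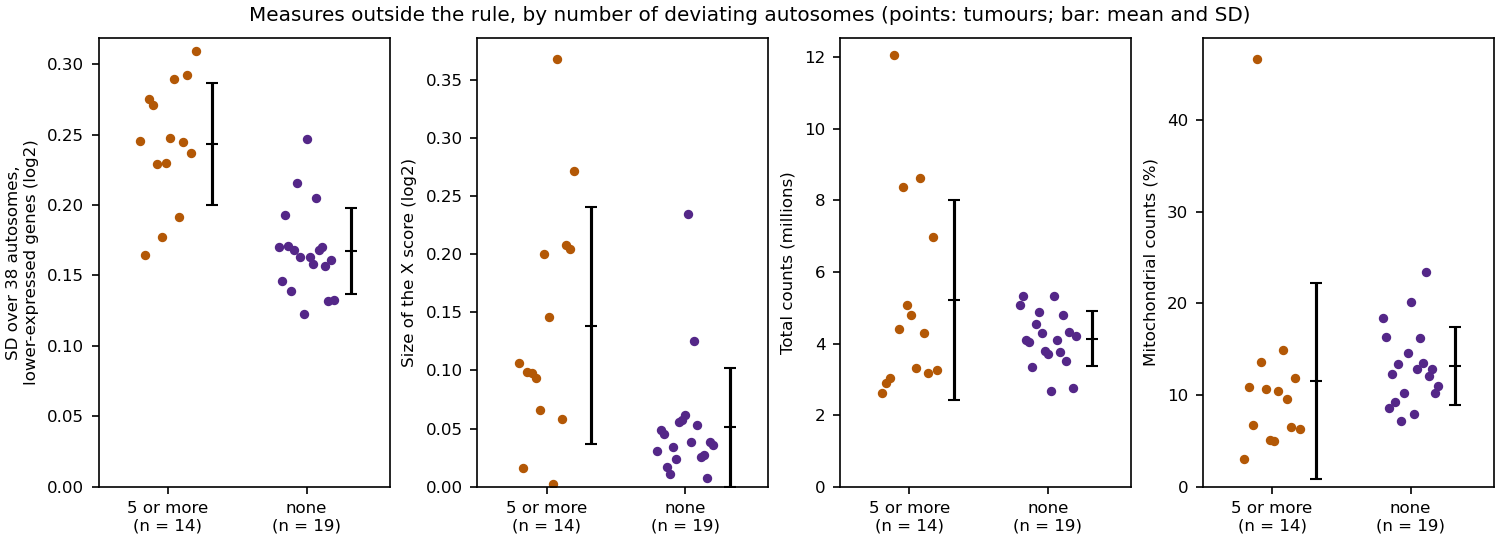
Measures that did not choose the tumours, 1 point per tumour, with the mean and SD of the multi-deviation (n = 14) and undeviating (n = 19) tumours. The X score is relative to the median of the autosome means that did. The spread of lower-expressed autosome scores (means 0.243 and 0.168) and the size of the X score (0.138 and 0.0512) are higher in the former, with overlapping points, and steroid replicate 5 is the highest point for total counts and mitochondrial share (46.7%).

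Depth did not pass a test between the classes, and 1 library stood apart. Total counts over all 62 tumours ran from 1967061 to 12063982 with a median of 4190135. They were 5214340 ± 2799560 (SD, n = 14) in multi-deviation and 4139340 ± 761809 (n = 19) in undeviating tumours (permutation p = 0.131, adjusted p = 0.295). Steroid replicate 5 had the largest total of the series and 46.7% of its counts in mitochondrial genes. The mitochondrial share was 11.5 ± 10.7% (n = 14) against 13.2 ± 4.26% (n = 19), with an adjusted permutation p of 0.822. Without steroid replicate 5 it was lower in the multi-deviation tumours by 4.36 percentage points (adjusted permutation p = 0.0157), and the part of this in the other results was not tested. With every library thinned to the smallest total, the spread of lower-expressed autosome scores still differed by 0.0594 (adjusted permutation p = 0.000300).

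No difference in the dogs' labels passed a test. Surgery was recorded for 9 of 14 dogs (64.3%) and 7 of 19 (36.8%; 2-sided Fisher exact p = 0.166, adjusted p = 0.312). Females were 42.9% and 52.6% (adjusted Fisher exact p = 0.840), and intact dogs 4 of 14 and 1 of 19 (Fisher exact p = 0.138, adjusted p = 0.295). Sample names beginning with S had the smallest p, at 9 of 14 and 6 of 19 (Fisher exact p = 0.0853, adjusted p = 0.295). The 14 dogs included 3 Boxers, 3 Labrador Retrievers and 2 Golden Retrievers, and the 19 included 1, 2 and 1 of these breeds. Other breeds leaned the other way. Miniature Schnauzers, Weimaraners and mixed dogs numbered 0 in the 14 and 2 each in the 19, and Australian Shepherds 1 and 2. Breeds were not tested, as most had 1 or 2 dogs.

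Survival was compared only in dogs with surgery, since the labels give 0 or 1 for every untreated dog of both classes. Of the 9 multi-deviation dogs 4 had a recorded end and 5 were lost to follow-up, and of the 7 undeviating dogs 3 had an end and 4 were lost. The former had 0.838 more ends than the log-rank expectation (exact 2-sided permutation p = 0.474, adjusted p = 0.711).

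Single genes were compared by edgeR's quasi-likelihood test over 13646 genes, with surgery and sex in the model and Benjamini-Hochberg adjustment over the whole table. In all, 424 genes (3.11%) passed an adjusted p of 0.05, 223 higher (1.63%) and 201 lower (1.47%). Of these, 384 are among the 11468 tested genes used for the scores (3.35%; 200 higher, 1.74%, and 184 lower, 1.6%), and nothing is read from them. Of the 2178 tested genes outside the scores, 40 passed (1.84%): 23 were higher (1.06%) and 17 lower (0.781%) in multi-deviation tumours. By place, the higher and lower genes numbered 5 and 3 of 477 on X, 16 and 14 of 1595 on autosomes, 2 and 0 of 90 on unplaced sequence, and 0 and 0 of 16 in mitochondrial DNA, where no gene had an unadjusted p under 0.05 either.

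These calls rested in part on 1 library. Without steroid replicate 5, 6 genes were higher and 12 lower of 2086 tested, and 16 of the 40 kept their call. Within dogs with surgery edgeR called 0 higher and 1 lower, with 183 of 2158 genes at an unadjusted p under 0.05, and none of the 40 kept its call. Within dogs without surgery it called 4 higher and 0 lower of 3013 tested, and 3 of the 40 were kept. With DESeq2, 56 genes were higher and 45 lower of 2178 tested, and 37 of the 40 were kept. With limma voom, 9 were higher and 16 lower of 2178 tested. Only 5 of these were among the 40, so most of the limma voom calls were other genes. The 4 genes named next had the largest changes in each direction among genes whose mean log2 CPM was 0 or more, and limma voom called none of them.

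ENSCAFG00000009059 (CanFam3.1 chr27:6756994-6787733) had the largest rise. Its log2 CPM in the multi-deviation tumours was at least -1.16, with a median of 3.13 and a highest value of 9.51, and in the undeviating tumours it ran from -1.16 to 4.51 with a median of 0.91. The range of the 14 was wide and covered that of the 19, with 10 of 14 above the median of the 19. Sx replicate 12 with 3528 counts and steroid replicate 5 with 2416 were far above the rest of both classes, the next being Sx replicate 3 with 300. The fitted log2 fold change was 5.14 (SE 0.96, adjusted p = 0.00528). Without steroid replicate 5 it was 3.90 (adjusted p = 0.0986), without Sx replicate 12 it was 3.79 (adjusted p = 0.00804), and limma voom gave 1.84 (adjusted p = 0.231). The call was lost within dogs without surgery (3.92, adjusted p = 0.133) and within dogs with surgery (4.91, adjusted p = 0.189).

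ENSCAFG00000014083 (CanFam3.1 chr4:21534006-21611987) was also higher. It ran from -1.16 to 6.62 with a median of 2.45 in the 14 tumours and from -1.16 to 3.35 with a median of 0.47 in the 19. In 12 of 14 it was above the median of the 19, and Sx replicate 8, untreated replicate 9, untreated replicate 7, Sx replicate 9, steroid replicate 5 and Sx replicate 6 were above every undeviating tumour. Its log2 fold change was 3.54 (SE 0.73, adjusted p = 0.00964) with edgeR and 2.06 (adjusted p = 0.143) with limma voom. Within dogs without surgery it was 4.31 (adjusted p = 0.0997) and within dogs with surgery 3.04 (adjusted p = 0.253).

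ENSCAFG00000019230 (CanFam3.1 chrX:121361239-121403609) was lower. It ran from -1.16 to 2.59 with a median of -0.18 in the 14 tumours and from -1.16 to 6.42 with a median of 1.57 in the 19, and 3 of 14 were above the median of the 19. Its log2 fold change was -3.67 (SE 0.85, adjusted p = 0.0157), and with limma voom -2.12 (adjusted p = 0.286). Within dogs without surgery it was -2.65 (adjusted p = 0.331). Among undeviating tumours with surgery, Sx replicate 1 was high at 5.44 and the others ran from -1.16 to 1.57, so the high values were otherwise in dogs without surgery. The gene did not pass the filter on low counts within dogs with surgery, or when untreated replicate 7 or untreated replicate 15 was left out, and then has no test.

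ENSCAFG00000013627 (CanFam3.1 chr38:16791695-16818411) showed the least overlap of the 4. No multi-deviation tumour was above the median of the undeviating ones, 1.98: the 14 ran from -1.16 to 1.90 with a median of 0.19 and the 19 from -1.16 to 5.90. The highest were Sx replicate 5 with 211 counts, SxRT replicate 3 with 180 and Sx replicate 2 with 151. Its log2 fold change was -3.37 (SE 0.75, adjusted p = 0.0144), and with limma voom -3.73 (adjusted p = 0.0591). Within dogs with surgery it was -4.77 (adjusted p = 0.0551) and within dogs without surgery -1.67 (adjusted p = 0.550). All 4 genes reached the floor of -1.16, the log2 CPM of a gene without counts, in tumours of both classes.

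**Figure D5:**
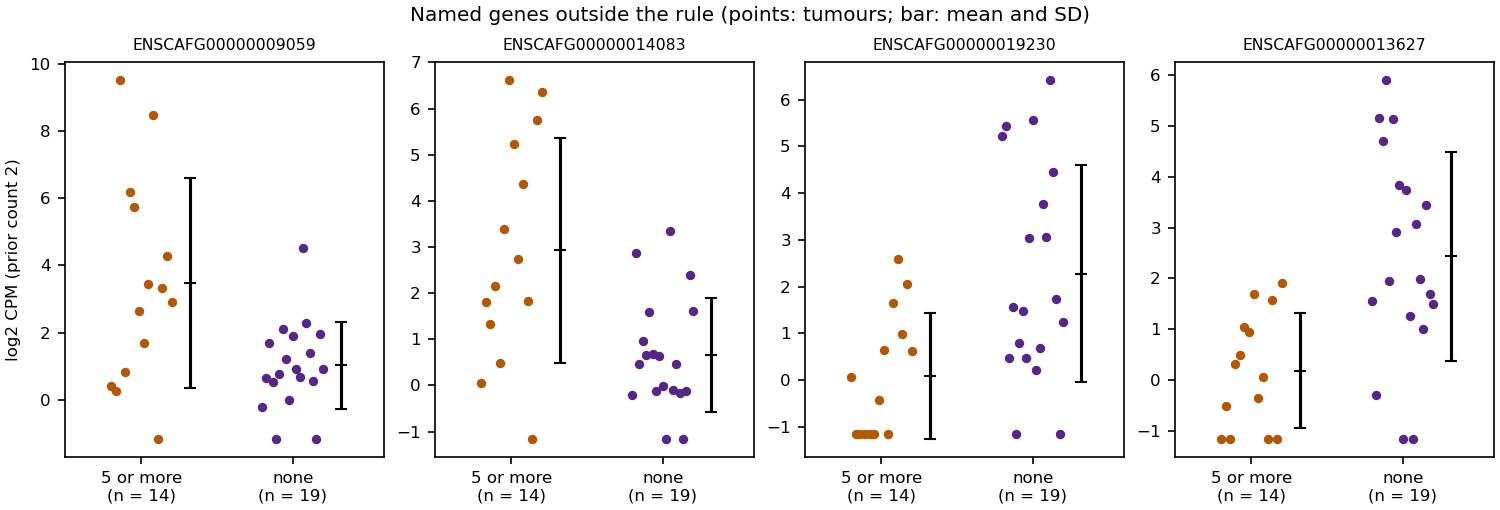
Log2 CPM (prior count 2) of the 4 named genes in each multi-deviation (n = 14) and undeviating (n = 19) tumour, 1 point per tumour, with the mean and SD of each class. ENSCAFG00000009059 and ENSCAFG00000014083 reach 9.51 and 6.62 in single multi-deviation tumours, and ENSCAFG00000013627 stays at or under 1.90 in all 14.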

How the data were processed

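The deposited table holds raw counts per gene for 62 tumours and no column of another series. It was made by the authors with featureCounts 2.0.4, per the file headers, from exons of CanFam3.1 genes (Ensembl release 100), with strand ignored and secondary alignments dropped. The submitters' processing notes also name STAR and DESeq2, with versions not given in the sources. Both reads of a pair entered the counts, and 61.0% to 88.9% of nonzero counts in a library were even, so precision is lower than totals show. Each library is 1 dog, numbered in accession order; 1891 pairs of libraries were compared and no library appears more than once.

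Log2 CPM used TMM factors and a prior count of 2. Genes were fitted with edgeR 4.0.16 in R 4.3.3 after filterByExpr, on the 33 libraries of both classes, with Benjamini-Hochberg adjustment. Single values were compared by 2-sided permutation (100000 resamples, exact under 10 dogs), exact sign-flip, Fisher exact and permuted log-rank tests, adjusted over 15 tests. These include the number of genes with counts, the even share of counts, and the first letter and number of the sample name, whose meaning the labels do not give. DESeq2 1.42.0 and limma 3.58.1 were alternatives. Methods were tested on simulated data.

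The tumours, lists and tests were chosen with earlier results of these data known. Named genes had to lie outside the scores, pass an adjusted p of 0.05, average 0 or more in log2 CPM and have class medians 0.5 or more apart in the direction of the fold change; the largest 2 per direction were taken, as 0 identifiers matched the name table. Gene lists by symbol were therefore not used here. Without strand, overlapping genes cannot be told apart, and near-identical genes are uncertain.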

Additional observations from a re-analysis of the deposited data

Results flagged for a closer look

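Among 30 combinations of 5 groups and 6 measures, 7 held a tumour far from the rest of its group. The limit is set so that chance gives this in about 1 in 20 groups of normally distributed values, and the groups and measures here overlap. Steroid replicate 5, a multi-deviation tumour, accounted for 5 of them. Its total of 12063982 counts was above the 2889519 to 5109817 of the other steroid tumours and the 2894630 to 4405960 of the other multi-deviation tumours without surgery. Its mitochondrial share of 46.7% stood against 12.9% to 21.4% and 6.29% to 13.7% in those groups. It had counts in 18142 genes, against 16473 to 16683 in the other multi-deviation tumours without surgery. The other two were sizes of the X score: 0.200 in SxRT replicate 4, against 0.0212 to 0.0866 in the other SxRT tumours, and 0.368 in Sx replicate 13, against 0.0582 to 0.208 in the other multi-deviation tumours with surgery.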

How the results depend on the processing

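No paired analysis was possible because each library is 1 dog and no matched tissue entered the comparison. Other limits, gene minima and scalings gave 14 to 18 multi-deviation tumours, always including the 14, and 9 (limit of 0.25) to 28 undeviating ones. The undeviating class was less stable. Of its 19 tumours, 9 stayed with a limit of 0.25, 13 with a gene mean of 3, 16 with a gene mean of 1 and 17 with the median over genes. The difference in X size lost its call with a limit of 0.25 (0.0653), with 4 autosomes (0.0601) and in dogs without surgery (0.0349, adjusted p = 0.759). The spread of lower-expressed autosome scores lost it with a gene mean of 1 (0.0443) and in dogs without surgery (0.0872), as did the displacement of lower-expressed genes in the latter (0.297, 5 dogs). A prior count of 5, which also drew the gene sets anew and gave 22 undeviating tumours, left a difference in spread of 0.0112 and a displacement of 0.0537. The mitochondrial difference passed only without steroid replicate 5 (-4.36 percentage points). Differences without a call changed sign: the number of genes with counts with a limit of 0.25 (-107), a gene mean of 1 (-226), the median over genes (-29.7), surgery only (-281) and without steroid replicate 5 (-4.05); female X with a limit of 0.25 (0.0188), a gene mean of 3 (0.0173), a prior count of 5 (0.00101) and no surgery (0.208); male X without surgery (0.0106); survival with a limit of 0.25 or a gene mean of 3 (-0.0643); and mitochondrial share (3.16) and name number (-0.7) without surgery, and female dogs with surgery (1.59). Genes outside the scores numbered 122 higher and 118 lower of 13564 tested without a filter, against 2178 tested in the main comparison. They were 56 and 45 of 2178 with DESeq2, where 544 had no adjusted p, and 48 and 31 of 2178 without covariates. With all 62 libraries they were 50 and 53 of 3768, and without surgery 4 and 0 of 3013. Limma voom gave 9 higher and the total as covariate 15 higher, each of 2178, and surgery only 0 and 1 of 2158. Leaving out 1 multi-deviation tumour gave 6 to 30 higher and 12 to 21 lower, of 2061 to 2132 tested. The fewest higher genes came without steroid replicate 5, then 14 without Sx replicate 6, Sx replicate 8 or SxRT replicate 4. The cause of these changes was not tested. The comparisons within surgery only for genes, and without steroid replicate 5 for other measures, were chosen after seeing the data.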
